A study of Homo sapiens with 2 samples.

Results

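The genes described are 10 members of the Jumonji C (JmjC) superfamily, namely KDM2A, KDM2B, KDM5A, KDM5B, KDM5C, KDM6A, KDM6B, KDM8, JARID2 and JMJD6. They were chosen by symbol, matched to the Entrez IDs of the annotation, and are 10 of the 27685 genes in it. The RNA came from PLC/PRF/5 cells, an established line of human hepatocellular carcinoma (HCC), kept for 24 h with DMSO as the solvent control or with JIB-04 at 6 µM, and each condition has 1 library. JIB-04 is a small molecule that inhibits JmjC demethylases as a class, and the comparison asks how the transcripts of genes of that class stood after treatment. One label describes the control cells as untreated, and they were taken as DMSO-treated because the library title and the methods of the study name DMSO. The 2 libraries held an estimated 28187793 (DMSO) and 23721989 (JIB-04) aligned fragments.

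JmjC proteins are dioxygenases that use iron, oxygen and 2-oxoglutarate, and the demethylases among them remove methyl groups from histone lysines by hydroxylation. The KDM2 enzymes act on H3K36 and carry a zinc finger that binds unmethylated CpG, the KDM5 enzymes act on H3K4, and the KDM6 enzymes on H3K27, the mark that Polycomb repressive complex 2 (PRC2) writes. JARID2 has lost the catalytic residues and serves as a PRC2 cofactor, KDM8 and JMJD6 are better known as hydroxylases of arginine and lysine side chains, and KDM2B brings the variant Polycomb complex PRC1.1 to CpG islands. Several JmjC genes are known targets of the hypoxia-inducible factors (HIF), which bind DNA at the core letters ACGTG or GCGTG.

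Promoters of 4 genes are shown. KDM2A and KDM2B have an internal start around which the exon data below differ. The paralogs KDM6A and KDM6B differ in the ratio of the whole gene. Each sequence is the 250 bases before a start site in the RefSeq promoter table on GRCh38.p14, read 5′ to 3′ on the strand of the gene. Capitals mark ACGTG or GCGTG on either strand, so that CACGC is GCGTG on the opposite strand.
KDM2A, upstream start, chr11:67119013-67119262, + strand: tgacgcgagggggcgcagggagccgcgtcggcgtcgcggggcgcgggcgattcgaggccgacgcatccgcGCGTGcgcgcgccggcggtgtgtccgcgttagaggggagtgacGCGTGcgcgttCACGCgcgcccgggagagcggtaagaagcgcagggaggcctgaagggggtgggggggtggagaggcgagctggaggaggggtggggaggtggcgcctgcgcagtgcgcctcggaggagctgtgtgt
KDM2A, internal start, chr11:67239764-67240013, + strand: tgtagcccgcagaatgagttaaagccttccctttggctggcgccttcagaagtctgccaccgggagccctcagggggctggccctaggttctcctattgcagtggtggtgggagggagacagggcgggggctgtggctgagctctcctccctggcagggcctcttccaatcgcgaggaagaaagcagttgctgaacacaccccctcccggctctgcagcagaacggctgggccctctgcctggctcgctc
KDM2B, an upstream start, chr12:121580247-121580496, - strand: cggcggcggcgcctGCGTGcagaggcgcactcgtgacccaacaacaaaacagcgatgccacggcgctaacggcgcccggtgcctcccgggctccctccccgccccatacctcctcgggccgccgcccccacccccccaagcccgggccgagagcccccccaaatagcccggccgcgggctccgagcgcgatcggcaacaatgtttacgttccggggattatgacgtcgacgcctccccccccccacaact
KDM2B, internal start, chr12:121467379-121467628, - strand: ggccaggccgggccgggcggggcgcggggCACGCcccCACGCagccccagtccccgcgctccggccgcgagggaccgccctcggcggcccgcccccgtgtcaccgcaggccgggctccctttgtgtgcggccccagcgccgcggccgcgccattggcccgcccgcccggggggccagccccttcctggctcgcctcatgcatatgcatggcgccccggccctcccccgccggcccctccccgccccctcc
KDM6A, chrX:44872938-44873187, + strand: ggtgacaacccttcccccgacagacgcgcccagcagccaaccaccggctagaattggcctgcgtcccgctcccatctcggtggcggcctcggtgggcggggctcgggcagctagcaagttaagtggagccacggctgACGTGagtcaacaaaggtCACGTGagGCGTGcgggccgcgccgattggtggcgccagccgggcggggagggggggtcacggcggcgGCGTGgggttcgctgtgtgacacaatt
KDM6B, first listed start, chr17:7833967-7834216, + strand: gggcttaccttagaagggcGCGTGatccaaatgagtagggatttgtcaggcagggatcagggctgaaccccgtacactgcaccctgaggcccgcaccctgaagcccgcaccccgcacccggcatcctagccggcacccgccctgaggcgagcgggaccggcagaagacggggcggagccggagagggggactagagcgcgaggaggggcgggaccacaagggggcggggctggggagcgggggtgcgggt
KDM6B, second listed start, chr17:7839667-7839916, + strand: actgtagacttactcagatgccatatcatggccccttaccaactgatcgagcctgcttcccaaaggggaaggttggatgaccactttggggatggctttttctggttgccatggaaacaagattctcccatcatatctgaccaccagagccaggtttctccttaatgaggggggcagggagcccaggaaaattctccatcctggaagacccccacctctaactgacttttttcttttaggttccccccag
The upstream KDM2A promoter held 3 GCGTG and 40 CpG dinucleotides, and the internal one held no such motif and 9 CpG. The internal KDM2B promoter held 2 GCGTG and 34 CpG, and the upstream one shown held 1 and 32. Upstream KDM2B windows not shown, before the start sites 121579659 and 121581023, held 1 and 0 GCGTG and 11 and 13 CpG. Which upstream start belongs to the main KDM2B transcript was not determined. KDM6A had the most matches, 5 in 250 bases (3 ACGTG, of which 2 are the opposite strands of 1 CACGTG, and 2 GCGTG), and the KDM6B windows held 1 and 0, with 21 CpG and 1 CpG. The KDM6B transcripts in the deposited values start 11 bases apart, and the listed KDM6B starts lie much further apart. The KDM6B windows therefore cannot both belong to the measured transcripts. In the table as a whole, 43.2% of 35116 promoters held either motif on either strand (18.5% held ACGTG and 32.2% GCGTG), and the median promoter held 11 CpG with a 95th percentile of 35. Of the 10 genes, 9 had an entry, with 15 start sites in all, and 9 of those 15 held either motif. The motif matches are a description of these letters.

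Most of these genes took a larger share of the transcripts with JIB-04 than in the control, with 8 of 10 log2 ratios above 0 beyond counting error on the TPM scale, whereas after division by GAPDH 2 of 10 (KDM2B and JMJD6) were above 0. The share of all genes above 0 beyond counting error was not computed, so the 8 of 10 has no background beside it. The level of a gene was taken as its TPM, the share of all transcripts corrected for length and scaled to a fixed total of 1000000, summed over its annotated transcripts. KDM2B, JMJD6, KDM2A and KDM6B were at least 2-fold higher with JIB-04, no member was at least 2-fold lower, and 6 lay within 2-fold. The count of 4 was 3 with a pseudocount of 5 TPM, 5 with the median gene set to 0 and 0 when each library was divided by GAPDH, which itself stood at 7975 TPM under DMSO and 20149 TPM under JIB-04. Of the 14450 genes that reached 1 TPM in at least 1 library (the described genes), 5.99% passed 2-fold upward and 6.88% passed it downward. The 2-fold call used the log2 ratio of TPM + 1, the 1 TPM being a pseudocount that damps ratios of low genes. Its median was 0.85 over the 10 members, beside -0.15 over all described genes, and 9 of the 10 lay above the latter. Together the 10 genes held 272 TPM under DMSO and 563 TPM under JIB-04, and the log2 ratio of 1.04 between these sums became -0.29 after division by GAPDH. That division takes 1.34, the log2 ratio of GAPDH itself, from every gene alike. The median gene is lowered by the same amount, so the 9 of 10 members above it stay above it. KDM2A, whose ratio was above that of 96.2% of the described genes, lay at -0.085 after the division. Few of all described genes therefore stay above 0 on that scale, which is the background of the 2 of 10. With 1 library per condition no test across cultures can be made, so each ratio is given with a counting interval, the exact 95% binomial interval conditional on the sum of the fragments estimated in both libraries, which leaves out differences between cultures and preparations. TPM is a share of the library, and in bulk RNA fewer cells with a transcript and less of it per cell cannot be told apart.

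**Figure D1:**
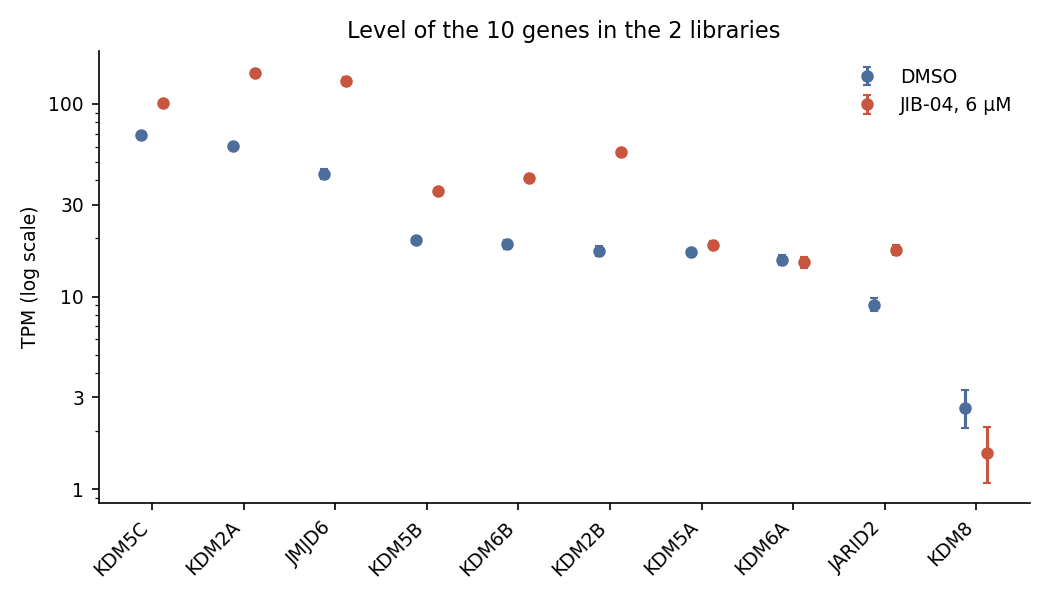
Level of each gene in TPM (log axis) in the DMSO library (blue) and the JIB-04 library (red), with the 95% Poisson interval of the estimated fragments as bars, mostly smaller than the points. On this scale KDM2A, JMJD6 and KDM2B stand well above their DMSO points (KDM2A does not after division by GAPDH), KDM5A and KDM6A nearly coincide, and KDM8 is the lowest gene in both.

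The order of the levels also differed between the libraries. With DMSO, KDM5C (69.2 TPM), KDM2A (60.1 TPM) and JMJD6 (43.3 TPM) stood above the rest, each apart from its neighbour beyond its counting interval. KDM5B, KDM6B, KDM2B, KDM5A and KDM6A followed within 15.5 to 19.6 TPM, and the intervals of neighbours in that order overlapped. JARID2 (9.06 TPM) and KDM8 (2.63 TPM) came last. With JIB-04, KDM2A led at 145 TPM, before JMJD6 at 132 TPM and KDM5C at 101 TPM. KDM2B, whose interval overlapped that of KDM5A in the control, came next at 55.9 TPM, and KDM5A and JARID2 were the neighbours whose intervals overlapped.

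Both H3K36 demethylases of the KDM2 family were higher with JIB-04 on the TPM scale, and after division by GAPDH KDM2B stood at 0.30 and KDM2A at -0.085. KDM2A (chr11:66886740-67025550 on hg19, + strand) was at 60.1 TPM in the DMSO library and at 145 in the JIB-04 library, and its log2 ratio was 1.25 (counting interval 1.20 to 1.301), higher than that of 96.2% of the described genes. KDM2B (chr12:121866900-122018920, - strand) was at 17.3 and 55.9 TPM, and its log2 ratio of 1.64 (1.54 to 1.74) was above that of 97.9% of genes. It was the highest value of the 10, although its interval overlaps that of JMJD6, which stood above it (1.502 and 1.45) with a pseudocount of 5 TPM. Their summed level went from 77.4 to 200 TPM, 2.59-fold, or 0.02 on the log2 scale after division by GAPDH. KDM2A remained the more abundant paralog, and KDM2B went from 0.288 to 0.387 of its TPM.

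KDM2A is annotated with a full-length transcript and with a short one that starts at an internal promoter and lacks the exons of the JmjC domain. The full-length transcript NM_012308 was at 43.3 TPM under DMSO and 125 TPM under JIB-04, and its share of the gene went from 72.1% to 86.2%. The short transcript NM_001256405 was at 12.5 and 10.4 TPM, so that its share went from 20.9% to 7.19%. These shares rest on how StringTie divided the shared exons, so the bases that single transcripts do not share were read as well. The first exon of the short transcript, exon 13 of 22 counted from the 5′ end (335 bases), had a coverage, scaled as for TPM (TPM units), of 12.1 with DMSO and 5.44 with JIB-04, a ratio of 0.451 (counting interval 0.247 to 0.790) from 48 and 18 estimated fragments. It was the one KDM2A exon that was lower with JIB-04. The 12 exons upstream of it had 38.7 and 105 TPM units, 2.71-fold (2.52 to 2.92), and the 9 exons downstream had 63.9 and 158, 2.47-fold (2.37 to 2.57). Within one gene, the exons upstream of the internal start and the exon at that start thus differed in opposite directions, on the TPM scale. The downstream exons exceeded the upstream ones by more TPM units with JIB-04 (158 and 105) than with DMSO (63.9 and 38.7). That measure goes the other way from exon 13, so whether the output of the internal start changed was not settled. These exon ranges, and the ones below, were chosen after their values were seen.

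KDM2B also has an internal start in RefSeq, but the annotation of the deposited values holds only 2 transcripts from upstream starts. The main one, NM_032590, took 90.8% of the gene's TPM with DMSO and 92.4% with JIB-04, so the annotated transcripts showed little movement between them. On GRCh38.p14 the internal start lies at position 121467378, between neighbouring exons of 87 and 225 bases in a GENCODE transcript with 23 exons. By their lengths alone these were taken as exons 13 and 14 of the 24 in the deposited annotation. The 13 exons upstream of it had a coverage of 6.46 TPM units with DMSO and 27.7 with JIB-04, 4.29-fold (3.62 to 5.11). The 11 exons downstream had 22.2 and 67.2, 3.03-fold (2.81 to 3.28). The upstream exons therefore stood at 29.2% (24.7 to 34.3) of the downstream level with DMSO and at 41.3% (37.7 to 45.1) with JIB-04. For KDM2A the same shares were 60.5% (56.5 to 64.8) and 66.6% (63.6 to 69.7). The upstream sets include exons 1 and 2 of KDM2B, at 3.56 and 1.20 TPM units with DMSO, and exon 1 of KDM2A, at 16.8. In both libraries these were covered less than the upstream exons after them, which lowers the shares of both genes. A short KDM2B protein without the JmjC domain is known from transcripts that start inside the gene. All 16 KDM2B exons with at least 10 estimated fragments in both libraries were higher with JIB-04, between 2.72-fold and 5.16-fold.

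**Figure D2:**
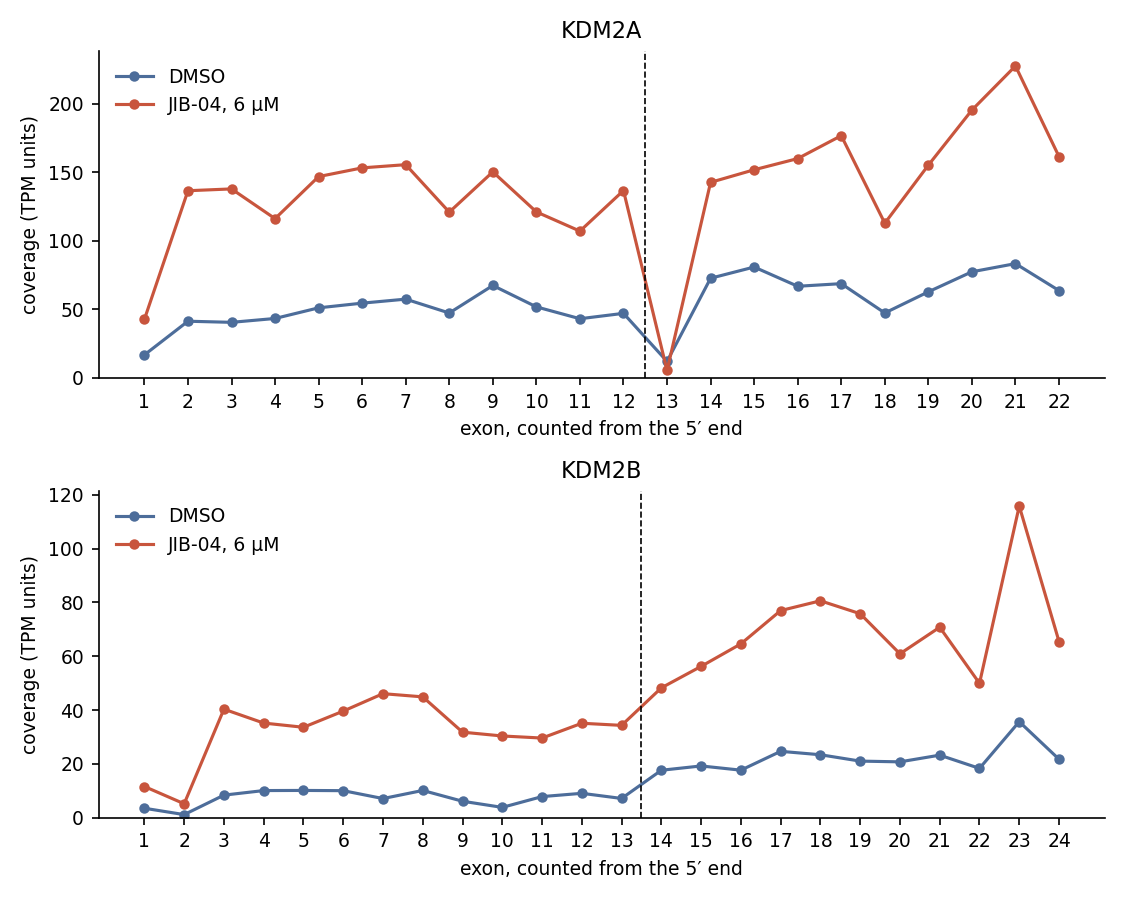
Coverage of each exon of KDM2A (top) and KDM2B (bottom) in TPM units, by exon counted from the 5′ end, in the DMSO (blue) and the JIB-04 (red) library, with a dashed line at the internal start. In KDM2A, exon 13 is low in both libraries and lower with JIB-04, and in KDM2B the coverage steps up past the internal start in both libraries.

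The 3 H3K4 demethylases of the KDM5 family differed from each other. KDM5A (chr12:389223-498621, - strand), first known as a partner of the RB protein, was at 17.0 TPM in the DMSO library and at 18.5 in the JIB-04 library, and its log2 ratio was 0.12 (0.04 to 0.21). KDM5B (chr1:202694313-202778598, - strand) was at 19.6 and 35.3 TPM, for a log2 ratio of 0.82 (0.74 to 0.89) that did not reach 2-fold. KDM5C (chrX:53220503-53254604, - strand) was at 69.2 and 101 TPM, for a log2 ratio of 0.54 (0.49 to 0.59). The intervals of the 3 ratios did not overlap. KDM5B and KDM5A stood at nearly the same level in the control, with a TPM ratio of 1.16 (1.09 to 1.23), and that ratio was 1.91 (1.80 to 2.02) with JIB-04. The family sum went from 106 to 155 TPM, a log2 ratio of 0.55 that became -0.79 after division by GAPDH.

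The exons and transcripts gave the same picture for KDM5C and an unsettled one for KDM5B. All 26 exons of KDM5C were higher with JIB-04, between 1.23-fold and 1.78-fold, and its main transcripts NM_001282622 and NM_004187, which differ by 3 bases, kept 51.8% and 44.2% of the gene with DMSO and 50.7% and 44.9% with JIB-04. All 27 measured exons of KDM5B were higher, between 1.14-fold and 2.83-fold. KDM5A has 1 annotated transcript, NM_001042603, and its 28 exons ranged from 0.755-fold to 1.98-fold. In KDM5B, NM_006618 held 55.4% and 56.5%, and the share of NM_001314042 went from 44.6% to 35.1%. The 108-base exon that only NM_001314042 has was covered at 11.2% and 14.7% of the level of the common exons, from 3 and 5 estimated fragments, so the shares of KDM5B transcripts were not settled at this depth.

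The H3K27 demethylases separated. KDM6B (JMJD3, chr17:7743224-7758108, + strand), the paralog known to respond to signals, was at 18.6 TPM in the DMSO library and at 41.3 in the JIB-04 library, and its log2 ratio was 1.11 (1.02 to 1.20), higher than that of 95.1% of genes. KDM6A (UTX, chrX:44732421-44971857, + strand), a subunit of the MLL3/MLL4 methyltransferase complexes, was at 15.5 and 15.1 TPM, for a log2 ratio of -0.04 (-0.16 to 0.09). The TPM of KDM6B over that of KDM6A was 1.20 (1.11 to 1.302) in the control and 2.74 (2.54 to 2.96) with JIB-04. Since both genes are read in the same libraries, this quotient does not depend on a scaling factor between the libraries. The summed level of both genes went from 34.2 to 56.4 TPM, with a log2 ratio of 0.71 that became -0.63 after division by GAPDH. AKT2, the gene at whose promoter the study examined KDM6B, was at 68.3 TPM in the DMSO library and at 43.3 in the JIB-04 library, and its log2 ratio was -0.65 (-0.72 to -0.57).

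All 21 measured exons of KDM6B were higher with JIB-04, between 1.71-fold and 2.57-fold. Its transcripts differ by 11 bases at the start and by 117 bases within the last exon, which NM_001080424 keeps and NM_001348716 splices out. NM_001080424 was at 14.4 and 28.9 TPM, and NM_001348716 at 4.22 and 12.4 TPM. The share of the latter went from 22.6% to 30.1%, and the coverage of the 117 bases went from 53.6% to 43.4% of the level of the common bases, from 14 and 21 fragments. With so few fragments and no interval of this share, the change was not settled.

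KDM6A was flat over the gene, and the ratios of its exons varied along it. With DMSO the 3 largest of its 7 transcripts were NM_021140 (29.1%), NM_001291416 (25.6%) and NM_001291415 (22.2%), which differ in cassette exons. With JIB-04 NM_021140 held 44.3%, NM_001291415 26.9% and NM_001291416 13.9%. NM_001291418 held 10.03% with DMSO and was listed at 0 with JIB-04, and the noncoding NR_111960 went from 1.46% to 15.0%. The cassette exons 13, 14 and 16 themselves had 12.9, 8.63 and 8.53 TPM units with DMSO and 11.7, 8.77 and 5.91 with JIB-04, from 6 to 21 fragments each, and their ratio intervals ran from 0.443 to 1.83, 0.449 to 2.25 and 0.207 to 2.11. These intervals are wide, so the shares of KDM6A transcripts were not settled at this depth. Exons 5 to 8, which lie next to each other toward the 5′ end and together span 270 bases, had 17.7 TPM units with DMSO and 8.82 with JIB-04, a ratio of 0.497 (0.292 to 0.820) from 57 and 23 fragments. Exons 1 to 4 had a ratio of 0.893 (0.635 to 1.25), and exons 9 to 30 a ratio of 1.02 (0.922 to 1.12). The interval of exons 5 to 8 overlapped that of exons 1 to 4 but not that of exons 9 to 30. Since the run was chosen after its values were seen, its interval does not allow for that choice.

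A gene whose coverage changes along its length gives different ratios in its 5′ and 3′ exons. The exons of each gene were divided at the middle one into a 5′ set and a 3′ set. Over 7659 genes with at least 6 exons and at least 50 estimated fragments in each set and library, the log2 ratio of the 3′ set minus that of the 5′ set had a median of 0.00 and ran from -0.49 at the 5th percentile to 0.41 at the 95th. KDM6A lay at 0.42, above 95.2% of these genes, with a 5′ set at -0.34 (-0.61 to -0.08) and a 3′ set at 0.08 (-0.08 to 0.23). KDM2B lay at -0.49, above 5.08% of them, with a 5′ set at 2.10 (1.85 to 2.35) and a 3′ set at 1.61 (1.497 to 1.72). The other 7 genes measured lay between -0.19 (JMJD6) and 0.12 (KDM5A). KDM8 had too few fragments for this measure.

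**Figure D3:**
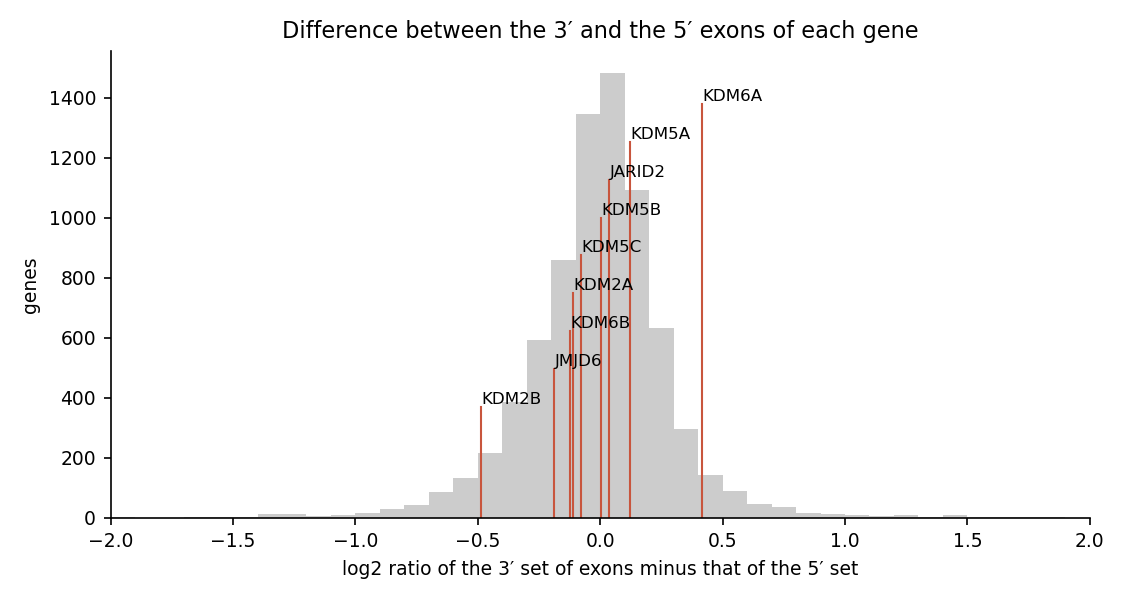
Histogram over 7659 genes of the log2 ratio (JIB-04 over DMSO) of the 3′ set of exons minus that of the 5′ set, with a red line for each of 9 genes, the heights of the lines being set for legibility. KDM2B at -0.49 and KDM6A at 0.42 stand at the edges of the range that holds most genes, on opposite sides.

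JMJD6, JARID2 and KDM8, which are not established lysine demethylases, ranged from a ratio near that of KDM2B to the lowest of the 10. JMJD6 (chr17:74708914-74722881, - strand), a lysyl hydroxylase of splicing factors, was at 43.3 TPM in the DMSO library and at 132 in the JIB-04 library, and its log2 ratio was 1.58 (1.48 to 1.69), higher than that of 97.8% of genes. All 7 of its exons were higher with JIB-04, between 2.28-fold and 3.42-fold. Its main transcript NM_015167 held 94.9% and 96.6% of the gene, and the 3891-base last exon that only NM_001081461 has was at 2.14 and 4.86 TPM units. JARID2 (chr6:15246206-15522273, + strand) was at 9.06 and 17.4 TPM, for a log2 ratio of 0.87 (0.74 to 1.01) short of 2-fold, and all 17 of its measured exons were higher. KDM8 (chr16:27214807-27233089, + strand), an arginyl hydroxylase also called JMJD5, was at 2.63 and 1.53 TPM, for a log2 ratio of -0.52 (-0.89 to -0.13) from 77 and 37 fragments. It was the lowest of the 10 ratios, yet 24.7% of the described genes had a lower one, and relative to the median gene it lay at -0.37.

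JARID2 is annotated with 2 first exons. NM_004973 was at 7.14 TPM under DMSO and 16.1 TPM under JIB-04, and NM_001267040 at 1.93 and 1.32 TPM, so that the share of the latter went from 21.2% to 7.54%. The first exon of NM_004973 had 3.05 and 8.53 TPM units, 2.79-fold, from 22 and 51 fragments, and went from 32.0% to 46.6% of the level of the common exons. No counting interval of that share was computed, so whether it changed beyond counting error was not settled. The 110-base first exon of NM_001267040 had 0.329 and 0.893 TPM units, from at most 1 fragment, or 3.44% and 4.88% of the common level, too few to show whether its own share changed.

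**Figure D4:**
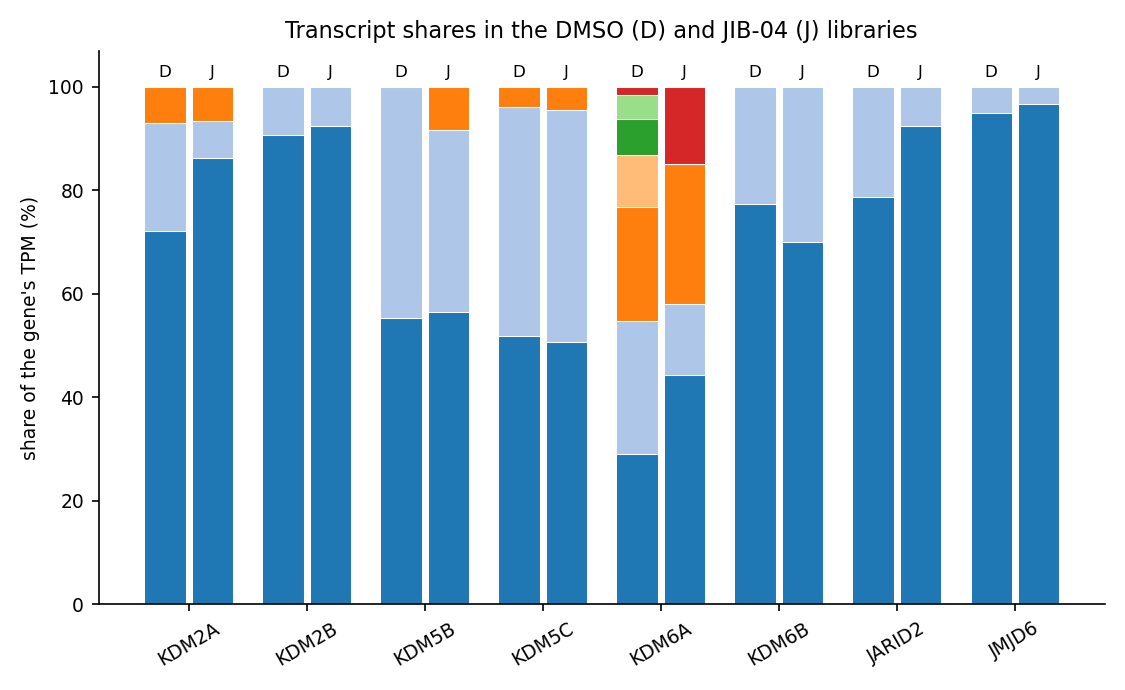
Share of each gene's TPM (%) given to its annotated transcripts in the DMSO (D) and the JIB-04 (J) library, 1 colour per transcript within a gene, ordered from the bottom by the share with DMSO. By StringTie's estimate the pale blue second transcript shrinks in KDM2A (20.9% to 7.19%) and JARID2 (21.2% to 7.54%), and KDM6A keeps 4 of 7 transcripts above 0 with JIB-04.

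The partners with which these proteins work were compared as lists written from general knowledge. None of the 12 described PRC2 genes passed 2-fold in either direction (the background shares being 5.99% and 6.88%), and their median log2 ratio was -0.34, or -0.19 when the median gene was set to 0. PHF19 (77.8 TPM with DMSO and 46.9 with JIB-04, log2 ratio -0.72) and SUZ12 (60.8 and 36.9 TPM, -0.71), the core subunit that holds the complex together, were the lowest. EPOP (19.9 and 26.7 TPM, 0.41) and EZH1 (10.7 and 14.02 TPM, 0.36), the alternative catalytic subunit, were the highest. JARID2, the cofactor of this complex, was at 0.87 and thus above all 12. EZHIP was under 1 TPM in both libraries.

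The 9 genes of PRC1.1, the complex of KDM2B, had a median log2 ratio of 0.16, which became -1.18 after division by GAPDH. None was at least 2-fold higher or lower, beside 5.99% and 6.88% of all described genes. RYBP (17.3 and 28.8 TPM, 0.70) and RNF2 (23.4 and 27.4 TPM, 0.21), a ubiquitin ligase of H2A, were the highest. RING1 (73.0 and 58.3 TPM, -0.32) and PCGF1 (28.0 and 20.02 TPM, -0.47), the subunit that defines the complex, were the lowest. KDM2B at 1.64 was above all 9.

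The 9 genes of the MLL3/MLL4 complexes, to which KDM6A belongs, had a median of -0.32 (-0.17 with the median gene at 0). PAGR1 was the 1 of 9 at least 2-fold lower, beside 6.88% of all described genes. It was at 33.5 TPM under DMSO and 11.4 TPM under JIB-04 (-1.47), and was followed by PAXIP1 (24.7 and 16.2 TPM, -0.58). KMT2C (7.87 and 15.3 TPM, 0.88), the H3K4 methyltransferase also called MLL3, and NCOA6 (25.9 and 36.0 TPM, 0.46) were the highest.

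Of 13 SIN3-HDAC partners of the KDM5 proteins, SAP30 was at least 2-fold higher, at 32.4 TPM under DMSO and 88.4 TPM under JIB-04 (1.42), and none was at least 2-fold lower. This is 7.69% of the list, near the 5.99% of all described genes that passed 2-fold upward. Their median of -0.06 became 0.09 with the median gene at 0. SIN3B (21.3 and 31.1 TPM, 0.53) came next, and BRMS1 (98.5 and 70.6 TPM, -0.48) and the deacetylase HDAC2 (89.2 and 65.4 TPM, -0.44) were the lowest.

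Among the other JmjC genes, the KDM3, KDM4 and KDM7 genes, most of them H3K9 demethylases, held the most calls. At least 2-fold higher were 5 of 11 (45.5%, beside 4 of the 10 members and 5.99% of all described genes). None was at least 2-fold lower, beside 6.88% of all described genes, and their median of 0.46 became -0.87 after division by GAPDH. KDM3A (34.2 and 160 TPM, 2.19) and KDM4B (15.0 and 52.1 TPM, 1.73) were the highest, and PHF8 (24.8 and 25.9 TPM, 0.06) and PHF2 (14.8 and 11.1 TPM, -0.39) the lowest among those with a mean TPM of at least 5, KDM4D (1.29 and 0.952 TPM, -0.23) lying between them at a lower level. Of the 8 other JmjC hydroxylases none was at least 2-fold higher and 1 was at least 2-fold lower, beside 5.99% and 6.88% of all described genes. Their median was -0.38 (-0.23 with the median gene at 0). JMJD4 (27.0 and 11.5 TPM, -1.17) was at least 2-fold lower, before TYW5 (12.1 and 6.91 TPM, -0.72), and HIF1AN (52.5 and 66.8 TPM, 0.34), the asparagine hydroxylase that acts on HIF, was the highest, followed by JMJD8 (82.9 and 73.9 TPM, -0.16) among those with a mean TPM of at least 5. No difference between these lists was tested.

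**Figure D5:**
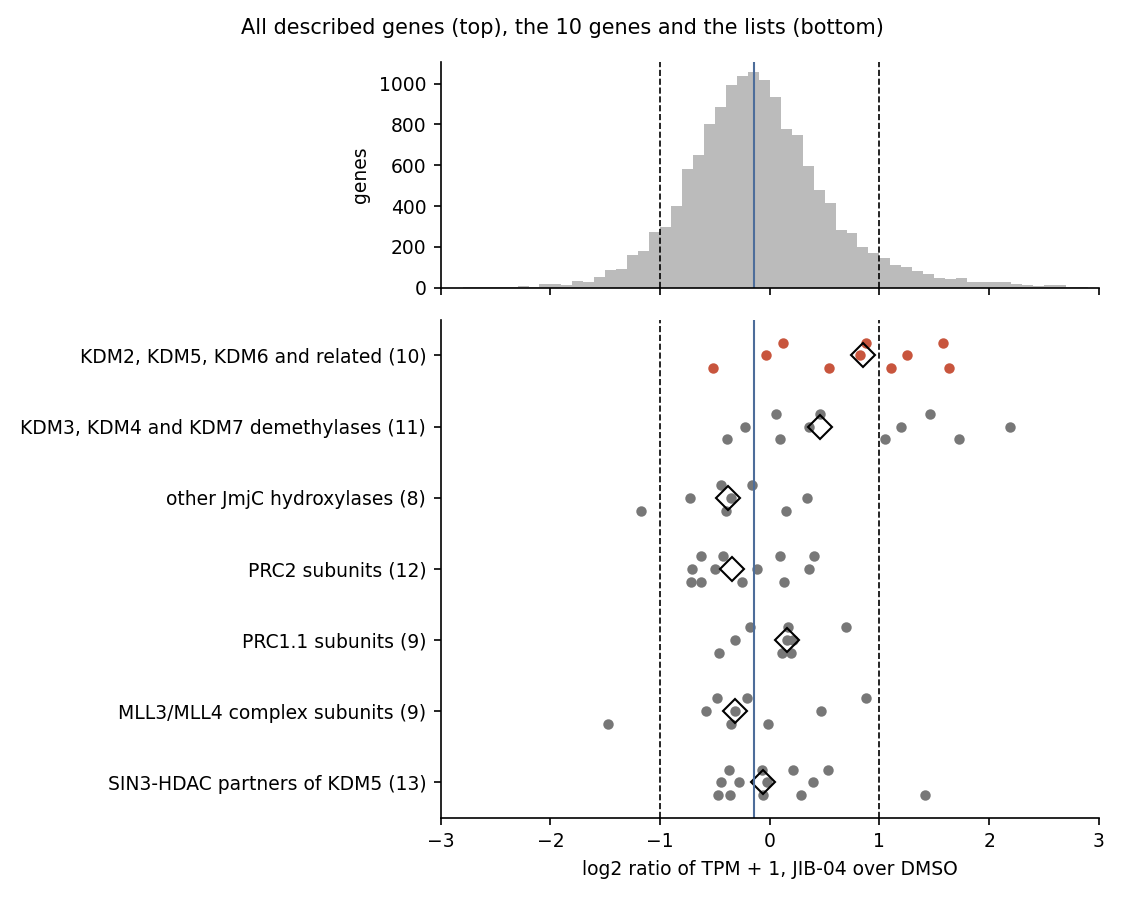
Log2 ratio of TPM + 1 (JIB-04 over DMSO) of 14450 described genes (top, number of genes per bin) and of single genes (bottom, points; black diamonds are list medians, numbers of genes in brackets), with the median of all genes as a blue line and 2-fold as dashed lines. The 10 genes (red) have a median of 0.85 and the KDM3, KDM4 and KDM7 genes one of 0.46 (after division by GAPDH -0.49 and -0.87). Without that division the medians of the other lists lie between -0.38 and 0.16.

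Markers of liver tumour cells were present, with gaps. Of 10 hepatoma markers 9 were described, and KRT8 (3212 TPM under DMSO and 1912 TPM under JIB-04) and KRT18 (4484 and 2214 TPM), the keratins of simple epithelia, made up most of their sum, which went from 8302 to 4604 TPM. Of the 9, 2 were at least 2-fold lower, KRT18 and APOB (103 and 32.9 TPM), beside 6.88% of all described genes. AFP (131 and 151 TPM), SERPINA1 (284 and 209 TPM) and HNF4A (71.9 and 72.3 TPM) were within 2-fold, ALB was low (9.74 and 4.53 TPM), and GPC3 was at 0.105 TPM with DMSO and listed at 0 with JIB-04. Markers of leukocytes summed to 155 and 180 TPM, all but a little of it CD68 and LYZ, with PTPRC listed at 0 in both libraries. Endothelial markers summed to 0.573 and 0.342 TPM, with CDH5 and KDR at 0, and stellate or fibroblast markers to 20.8 and 13.4 TPM. The 4 cholangiocyte markers summed to 54.0 and 60.2 TPM. The part of these differences in the ratios of the 10 genes was not tested.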

How the data were processed

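RNA of PLC/PRF/5 cells was sequenced as stranded mRNA libraries, 1 per condition. According to the submitters' notes on processing, reads were trimmed with Trimmomatic 0.32, checked with FastQC 0.11.5 and aligned to hg19 with HISAT2 2.0.5, and Bowtie2 2.2.6 is also named. Per the file headers, the authors ran StringTie 1.3.3b with abundances limited to annotated RefSeq transcripts and with strand taken into account, and deposited coverage, FPKM and TPM per transcript and coverage per exon, without read counts. Gene symbols came from an NCBI RefSeq table of GRCh38.p14 used for names only, and promoters from RefSeq on the same assembly. Coordinates were not converted between builds, and the internal start of KDM2B was placed by matching the lengths of GENCODE exons on GRCh38.

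A gene's TPM was the sum over its transcripts, and log2 ratios were taken of TPM + 1. Exon coverage was summed over transcripts and scaled as TPM (TPM units). StringTie divides shared exons among transcripts, so transcript shares are estimates. Fragments were estimated as covered bases over 202, the most frequent number of aligned bases where coverage was weak. Intervals (95%) and depths cover counting error only. Amino acid sequences were not used here.

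The genes, lists and alternatives were chosen with earlier results of these data known. Named are all 10 genes, transcripts with at least 10% of a gene in either library, and of each list the 2 highest and 2 lowest whose mean TPM reached 5. AKT2, GAPDH, EZHIP, KDM4D and the transcripts under 10% (NM_001081461) were added after their values were seen. The exon sets, exon ranges and motifs were also chosen then. The alternatives were other pseudocounts, FPKM, median and quantile scaling, division by GAPDH, single or NM_ transcripts, other thresholds and filters, and bases of single transcripts. The intervals and 2-fold calls of genes were tested on simulated fragments with counting error only. Differences between cultures, transcript shares and exon sets were not simulated. Python 3.11.15, numpy 2.4.6, pandas 2.3.3, SciPy 1.17.1 and matplotlib 3.10.9 were used.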

Additional observations from a re-analysis of the deposited data

How the results depend on the processing

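The count of 4 members at least 2-fold higher was 0 after division by GAPDH and 1 at a threshold of 3-fold, and the count of 0 members at least 2-fold lower was 3 after division by GAPDH. The median log2 ratio of the members, 0.85, was 0.69 with a pseudocount of 5 TPM, 0.99 with the median gene set to 0, 1.00 after quantile normalization and -0.49 after division by GAPDH. Division by GAPDH turned 6 of the 10 members, among them KDM2A (-0.085) and KDM6B (-0.23), and left KDM2B (0.30) and JMJD6 (0.25) above 0. The division lowers every gene by the same 1.34, the median gene included, so the order of the genes does not change. Under the other settings 3 of 70 member ratios changed sign, all of KDM6A. Read from the bases that only 1 transcript has, the change in share was 1.44 points for JARID2 NM_001267040, 3.42 points for KDM5B NM_001314042 and -5.38 points for JMJD6 NM_015167, against -13.7, -9.51 and 1.71 points by StringTie, and the cause was not tested. On the same reading the change for JARID2 NM_004973 was 14.6 points, from 22 and 51 fragments, against 13.7, and that for KDM8 NM_024773 was -25.4 points, from 4 and 2 fragments, against 0. No paired analysis was possible because each condition has 1 library, and for the same reason no library could be left out.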
